A study of Mus musculus with 4 samples.

Results

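Interferon-stimulated genes were described in LLC tumors grown from cells labelled as expressing chemerin or as wild type. The set comprised 43 genes of the 47729 in the deposited table and was defined by gene symbol and by no threshold on the measured values, although it was chosen with earlier results of these samples known: 26 effectors of type I interferon, 9 GTPases associated with interferon gamma, 5 transcription factors and 3 RNA sensors. Each symbol matched 1 row. LLC is a Lewis lung carcinoma line of C57BL/6 origin, and the cells were grafted under the skin of the back of C57BL/6 mice. LLC-Chem tumors came from cells transfected with pEFIN plasmids that, per the labels, encode murine chemerin (1-157), a form that needs no further cleavage to be bioactive, and LLC tumors came from cells labelled wild type. Tumors of both groups were taken on day 5 and sequenced as pools of 3 tumors, with 2 pools per group. The study worked with drug-selected clones and also made an empty-vector line, and how many clones stand behind the pools was not stated. Differences between the groups could therefore not be separated from differences between cell clones or from the effect of selection.

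Interferons are secreted proteins that alert cells to nucleic acids of viruses or of damaged cells. Type I interferons bind the IFNAR1 and IFNAR2 receptor chains, and the kinases JAK1 and TYK2 then activate a complex containing STAT2 and IRF9 that binds the interferon-stimulated response element (ISRE) of target promoters. Interferon gamma, a product of NK and T cells, acts on its targets through the gamma-activated sequence (GAS). In tumors these programs are active in cancer cells, macrophages, dendritic cells and endothelium, and their products restrict viruses, sense RNA and support antigen presentation.

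Levels are given in RPM, read numbers scaled to a common library total. The library totals, inferred from the spacing of the values, ranged from 28470000 to 33990000 reads, and 3 reads corresponded to 0.0883 to 0.105 RPM. Groups were compared by limma (two-sided) on log2(RPM + 0.5) among the 13694 genes whose mean reached 1 RPM, and all 43 members passed this filter. A gene was called when its p, adjusted by Benjamini-Hochberg across all tested genes, was under 0.05. Every fold change (log2FC), with its standard error (SE), is LLC-Chem against LLC on the log2(RPM + 0.5) scale. With 2 pools against 2, an exact permutation test of a single gene cannot go below p = 0.33. The chemerin gene Rarres2 was at 102 and 98.2 RPM in LLC and at 106 RPM in both pools of LLC-Chem (log2FC 0.08, limma adjusted p = 0.541), so it did not check the labels. The keratins Krt8 and Krt18 were present in every pool, whereas the lung and epithelial markers Nkx2-1, Sftpc and Epcam were at 0 or below 0.2 RPM and Cdh1 was at 0.45 to 1.4 RPM.

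The promoters were inspected for the 2 elements named above. RefSeq promoter windows of the GRCm38.p6 build, from 250 bases before to 50 bases after the start site, were found for 34 of the 43 members, in 40 windows. The ISRE core was searched as GAAANNGAAA and the GAS as TTCNNNGAA, on both strands. The ISRE core was found in 22 of the 40 windows (55.0%), against 3.44% of 32851 windows over all genes, and the GAS in 13 windows (32.5%), against 8.3%. These matches describe letters in the windows and were not tested for binding. The sequences below are from the 4 members with the lowest adjusted p among called genes that held an ISRE core. Isg15 was added, after its values were seen, for its 3 overlapping matches, and Irf1 for a GAS in its first window, which held no ISRE core. They are written 5′ to 3′ along the gene, with the matched ISRE core, or the GAS in Irf1, in capitals. Positions count the annotated start base as 0.
Oas1a, chr5:120907526-120907585, minus strand, match from -20 to -5: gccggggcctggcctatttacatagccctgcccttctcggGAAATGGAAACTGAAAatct
Ifih1, chr2:62646206-62646235, minus strand, match from 32 to 41: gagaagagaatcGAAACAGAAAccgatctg
Trim30a, chr7:104465195-104465254, minus strand, match from -36 to -27: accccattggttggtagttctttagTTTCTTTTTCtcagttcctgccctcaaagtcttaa
Gbp5, chr3:142496744-142496803, plus strand, match from -165 to -156: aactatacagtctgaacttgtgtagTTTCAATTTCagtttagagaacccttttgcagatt
Isg15, chr4:156200856-156200915, minus strand, match from -78 to -57: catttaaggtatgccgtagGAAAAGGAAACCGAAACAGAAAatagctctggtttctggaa
Irf1, chr11:53769898-53769957, plus strand, match from -90 to -82: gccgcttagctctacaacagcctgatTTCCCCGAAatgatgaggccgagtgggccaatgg
In Oas1a and Isg15 the matches overlap and run along the gene's own strand, while in Trim30a and Gbp5 the core lies on the opposite strand and appears as its reverse complement.

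Interferon-stimulated genes were lower in the LLC-Chem tumors. Of the 43 members, 25 were called lower, 0 higher and 18 were not called, whereas 13.5% of all genes tested were called lower and 9.54% higher. At an unadjusted p under 0.05, 32 members were lower and 0 higher, beside 3208 lower and 2459 higher of the 13694 genes tested, and 0 members were higher by edgeR or DESeq2 on recovered reads. The median log2 fold change of the members was -1.09, against -0.043 over all genes tested, and the values ran from -2.61 for Mx1 to 0.57 for Irf1. Both LLC-Chem pools lay below both LLC pools for 38 members, an order found in 39.3% of all genes tested. No member had both LLC-Chem pools above both LLC pools, an order found in 33.1% of all genes. The remaining 5 members, Irf1, Ddx58, Herc6, Ifi44 and Eif2ak2, overlapped between the groups. The called members stood at 14.5% to 58.6% of their mean LLC level, and 21 of the 25 stood under 50%.

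**Figure D1:**
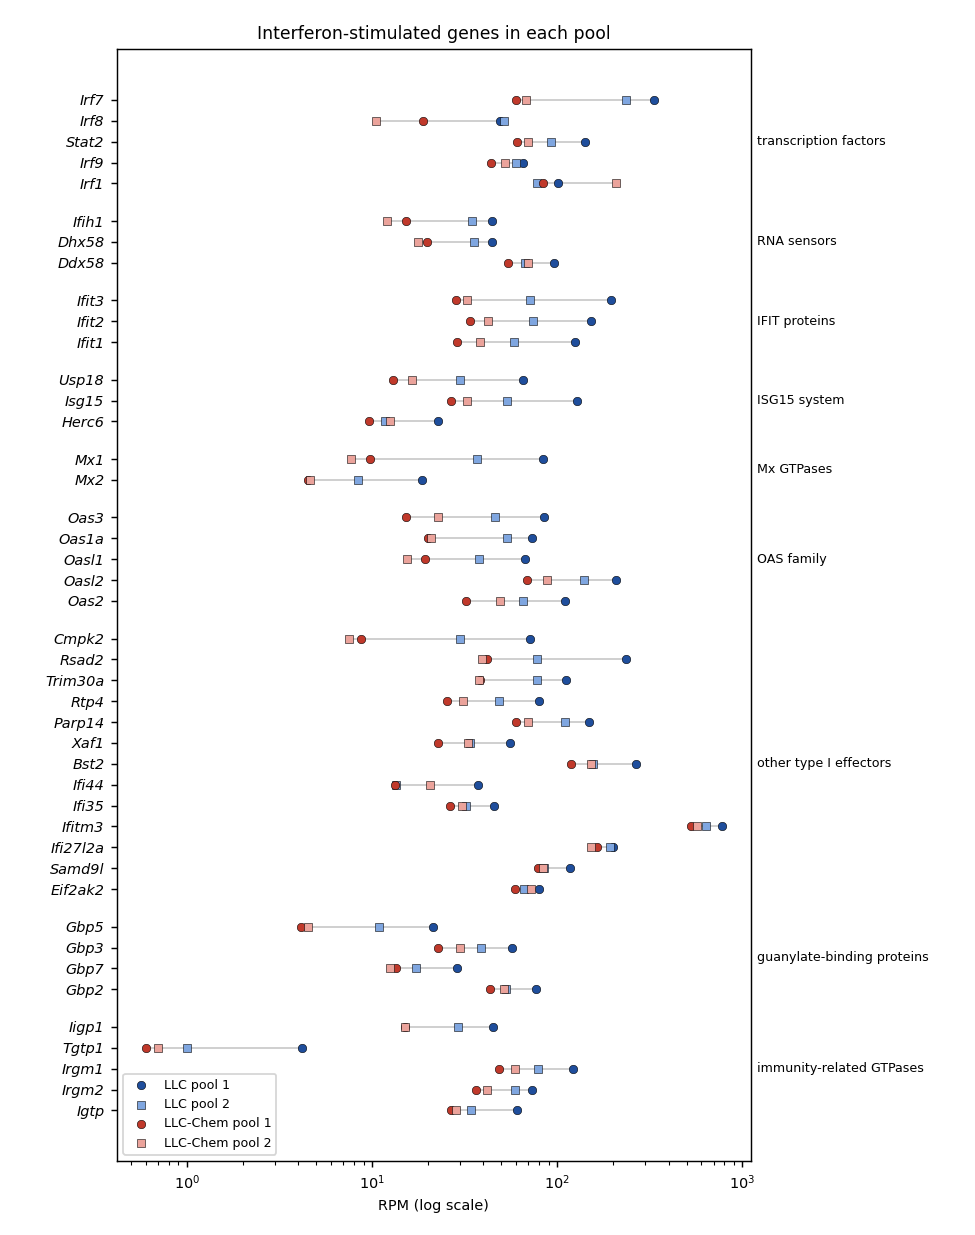
Level of each of the 43 interferon-stimulated genes in the 4 pools, in RPM on a log axis, ordered by role and, within a role, by fold change; circles are pool 1 and squares pool 2 of each group, and grey lines join the lowest and highest pool. LLC pool 1 is the highest pool for most genes, and Irf1 stands out by its high value in LLC-Chem pool 2 (207 RPM).

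Markers of leukocytes and endothelial cells also differed between the groups. Of 23 leukocyte markers tested, 16 were lower and 0 higher (also 0 higher at an unadjusted p under 0.05 and by edgeR or DESeq2), with a median log2 fold change of -1.95, and 5 of 6 endothelial markers were lower, with a median of -2.09. Ptprc, which encodes the pan-leukocyte protein CD45, measured 125 and 124 RPM in LLC and 55.2 and 29.3 RPM in LLC-Chem. Its log2FC was -1.62 (limma adjusted p = 0.0218), and 8 members had a lower one. Summed over 35 leukocyte markers, the level was 1745 and 1901 RPM in LLC and 921 and 517 RPM in LLC-Chem. In bulk tissue, fewer cells of a type and less RNA per cell cannot be told apart, and the part of the markers in the members' differences was not tested.

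The calls rested on small groups. Their adjusted p ran from 0.009 to 0.0495 (limma), with 6 of the 25 above 0.04. Leaving out any 1 of the 4 pools left 0 members called, with 18 to 40 lower at an unadjusted p under 0.05, and it left 0 of the 13694 genes called, with 1580 to 2823 lower at that p. Testing all genes above 0 in any pool also left 0 called (27 at an unadjusted p under 0.05), and limma without the trend in variance called 15 members and 1271 genes lower. Ifit1, Mx2 and Gbp3 were nearest to the threshold: each lost its call under at least 1 other pseudocount and under median-of-ratios scaling (adjusted p = 0.0512, 0.0503 and 0.052 from limma).

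**Figure D2:**
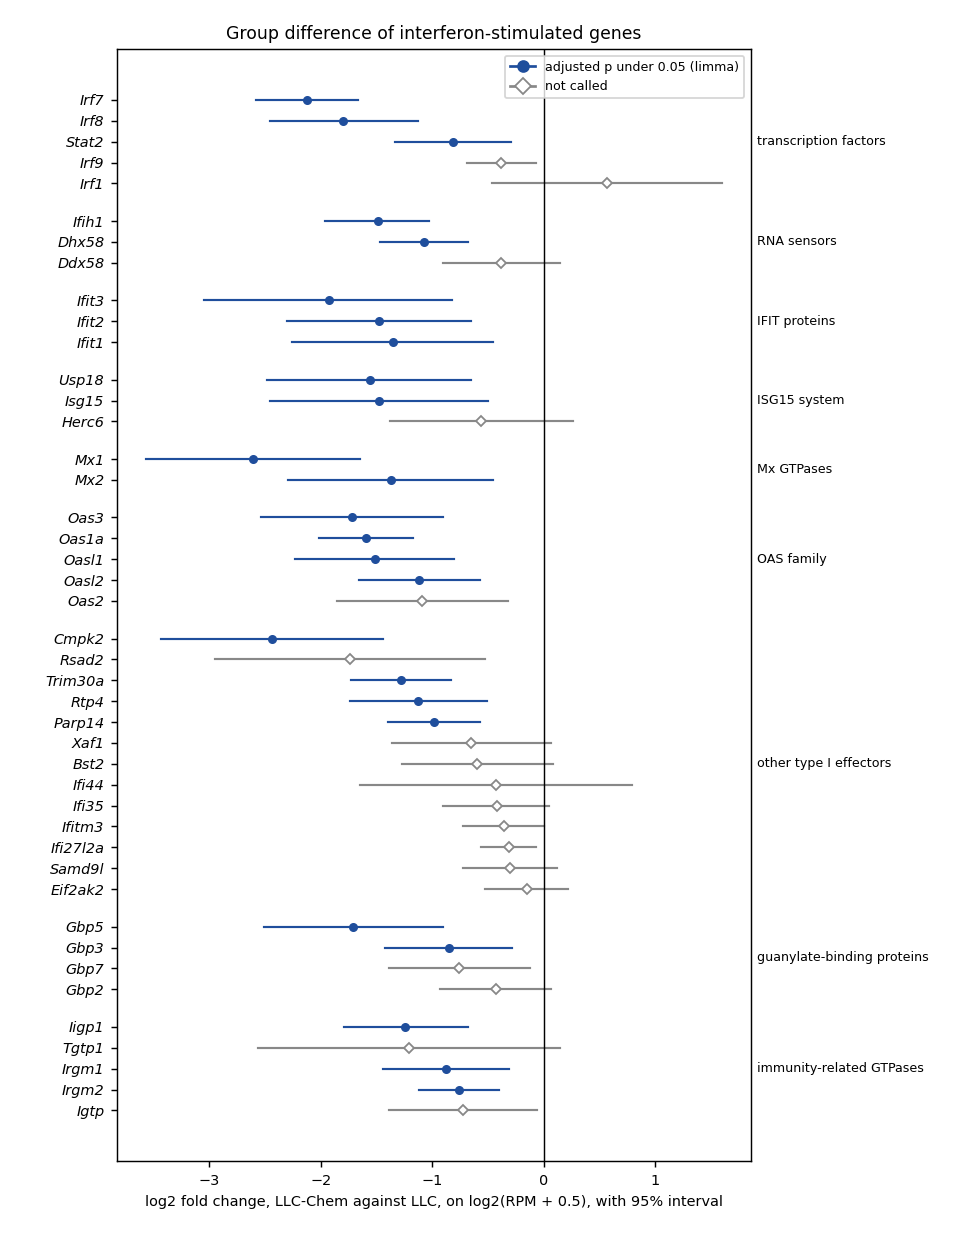
log2 fold change of each member, LLC-Chem against LLC, on log2(RPM + 0.5), with its 95% interval from limma; filled circles are called and open diamonds are not. Intervals run below 0 for the 25 called members and for 7 others, and Irf1 is the single member with an estimate above 0.

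The transcription factors showed unequal changes. Irf7 (ENSMUSG00000025498), the factor that amplifies type I interferon production, measured 333 and 235 RPM in LLC and 59.97 and 67.9 RPM in LLC-Chem. It lies on chromosome 7 of GRCm38 from 141262706 to 141266481. The LLC mean was 284 ± 69.5 RPM (SD, n = 2) and the LLC-Chem mean 63.9 ± 5.58 RPM (SD, n = 2). The log2FC was -2.12 (SE 0.18, limma adjusted p = 0.009), the lowest adjusted p among the members, and leaving out any 1 pool kept it between -2.37 and -1.87. Irf8, which directs the development of macrophages and dendritic cells, measured 48.9 and 51.5 RPM in LLC and 18.7 and 10.5 RPM in LLC-Chem (log2FC -1.80, SE 0.27, limma adjusted p = 0.0158). It was the only member whose level was lower in LLC pool 1 than in LLC pool 2. Stat2, a subunit of the ISRE-binding complex, measured 141 and 92.5 RPM in LLC and 60.7 and 69.2 RPM in LLC-Chem. The call was close to the threshold (log2FC -0.81, limma adjusted p = 0.046), and the fold change was -0.51 without LLC pool 1.

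The other 2 of the 5 factors were not called. Irf9, the DNA-binding subunit of the same complex, measured 65.2 and 60.1 RPM in LLC and 44.2 and 52.2 RPM in LLC-Chem (log2FC -0.38, limma adjusted p = 0.0775). Irf1, an early target of interferon gamma whose promoter stretch with the GAS is shown above, measured 101 and 78.1 RPM in LLC and 84.1 and 207 RPM in LLC-Chem. Its log2FC was 0.57 (SE 0.41, limma adjusted p = 0.334), and it was -0.08 without LLC-Chem pool 2. LLC-Chem pool 1 lay between the LLC pools, so the direction for Irf1 rested on 1 pool.

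Of the 3 cytoplasmic RNA sensors, 2 fell. Ifih1 encodes MDA5, which recognises long double-stranded RNA, and measured 44.4 and 34.7 RPM in LLC and 15.3 and 12.1 RPM in LLC-Chem (log2FC -1.49, SE 0.19, limma adjusted p = 0.013). Dhx58 encodes LGP2, a regulator of the other sensors, and measured 44.7 and 35.4 RPM in LLC and 19.8 and 17.6 RPM in LLC-Chem (log2FC -1.07, limma adjusted p = 0.0156). In both genes the LLC-Chem pools lay well below the LLC pools and pool 2 of LLC-Chem was the lowest. Ddx58 encodes RIG-I, the sensor of RNA with triphosphate ends, and measured 96.5 and 66.8 RPM in LLC and 54.5 and 69.9 RPM in LLC-Chem. Its groups overlapped and it was not called (log2FC -0.38, 95% interval -0.90 to 0.15, limma adjusted p = 0.228).

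All 3 IFIT genes, including Ifit1, whose product binds viral RNA that lacks host cap marks, were called lower. They lie together on chromosome 19 between 34550694 and 34650009. Ifit1 measured 125 and 58.2 RPM in LLC and 28.7 and 38.3 RPM in LLC-Chem (log2FC -1.35, limma adjusted p = 0.0494), a call lost under TMM or median-of-ratios scaling, the pseudocount of 0.1 and the filter at 5 RPM (adjusted p 0.0501 to 0.0512), without the trend (0.08) and without a filter on low values (0.172). Ifit2 measured 152 and 74.5 RPM in LLC and 34.0 and 42.2 RPM in LLC-Chem (log2FC -1.48, limma adjusted p = 0.0344). Ifit3 measured 195 and 71.5 RPM in LLC and 28.4 and 32.8 RPM in LLC-Chem (log2FC -1.93, limma adjusted p = 0.0359). In all 3 genes LLC pool 1 stood at more than 2 times LLC pool 2, and without LLC pool 1 the fold changes were -0.80 for Ifit1, -0.96 for Ifit2 and -1.21 for Ifit3. Of the 50-base words of Ifit3 exons, 51.2% also occur in its copy Ifit3b, so reads could be split between them. Ifit3b itself fell by 2.10 on the log2 scale.

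The ubiquitin-like modifier Isg15 and its protease Usp18 moved much as the IFIT genes did. Isg15, with the 3 ISRE cores shown above, measured 128 and 53.8 RPM in LLC and 26.8 and 32.4 RPM in LLC-Chem (log2FC -1.48, SE 0.39, limma adjusted p = 0.0484). Usp18, which also restrains the type I receptor, measured 65.5 and 29.9 RPM in LLC and 13.0 and 16.5 RPM in LLC-Chem (log2FC -1.56, limma adjusted p = 0.0376). Without LLC pool 1 the fold changes were -0.86 and -1.0. Herc6, the ligase that attaches ISG15 to proteins in mice, was not called (log2FC -0.56, 95% interval -1.38 to 0.26, limma adjusted p = 0.247), and its LLC-Chem pool 2 lay above LLC pool 2.

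The Mx genes, named for GTPases that block viral nucleocapsids in mice with intact copies, included the largest fall among the members. Mx1 (ENSMUSG00000000386) measured 84.0 and 36.9 RPM in LLC and 9.79 and 7.75 RPM in LLC-Chem. Its log2FC was -2.61 (SE 0.38, limma adjusted p = 0.0156), and it was -2.02 without LLC pool 1. The related Mx2, also on chromosome 16 and annotated as a polymorphic pseudogene, measured 18.6 and 8.39 RPM in LLC and 4.50 and 4.60 RPM in LLC-Chem (log2FC -1.37, limma adjusted p = 0.0493, and -0.82 without LLC pool 1).

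The OAS proteins make or are related to enzymes that make 2-5A, the signal that activates RNase L. Of the 5 members, 4 were called lower. Oas1a, whose 2 overlapping ISRE cores end just before the start site, measured 73.1 and 53.7 RPM in LLC and 20.1 and 20.8 RPM in LLC-Chem (log2FC -1.59, SE 0.17, limma adjusted p = 0.0116). Of the 50-base words of Oas1a exons, 57.6% occur in Oas1g, which itself fell by 1.66, so the split of reads between these copies is uncertain. Oas3 measured 85.1 and 46.1 RPM in LLC and 15.3 and 22.8 RPM in LLC-Chem (log2FC -1.72, limma adjusted p = 0.0256). Oasl1, known as a translational repressor of Irf7, measured 67.2 and 37.6 RPM in LLC and 19.2 and 15.5 RPM in LLC-Chem (log2FC -1.51, limma adjusted p = 0.0248). Oasl2 measured 207 and 140 RPM in LLC and 69.1 and 88.5 RPM in LLC-Chem (log2FC -1.12, limma adjusted p = 0.0265). Oas2 fell just short of a call, with 111 and 65.1 RPM in LLC and 32.1 and 49.3 RPM in LLC-Chem (log2FC -1.09, limma adjusted p = 0.0556).

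The other 13 effectors of type I interferon were divided: 4 were called lower, 9 were not called, and their median log2 fold change was -0.60. Cmpk2 and Rsad2 are neighbours on chromosome 12, between 26442746 and 26479837. Cmpk2, a mitochondrial nucleotide kinase, measured 71.7 and 29.8 RPM in LLC and 8.75 and 7.55 RPM in LLC-Chem (log2FC -2.44, SE 0.40, limma adjusted p = 0.0187, and -1.81 without LLC pool 1). Rsad2 encodes viperin, which makes a nucleotide that ends viral RNA chains, and measured 236 and 78.3 RPM in LLC and 41.7 and 39.1 RPM in LLC-Chem. Despite a log2FC of -1.74 it was not called (SE 0.48, limma adjusted p = 0.0533), and without LLC pool 1 the log2FC was -0.95. edgeR's quasi-likelihood test on recovered reads did call it (adjusted p = 0.0471).

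Trim30a, a restraint on inflammatory signalling whose ISRE stretch is shown above, measured 111 and 77.8 RPM in LLC and 38.3 and 37.8 RPM in LLC-Chem (log2FC -1.28, SE 0.18, limma adjusted p = 0.0146). Parp14, an ADP-ribosyltransferase, measured 148 and 111 RPM in LLC and 59.7 and 69.5 RPM in LLC-Chem (log2FC -0.98, limma adjusted p = 0.0202). Rtp4, a chaperone of membrane receptors, measured 79.3 and 48.8 RPM in LLC and 25.5 and 31.1 RPM in LLC-Chem (log2FC -1.13, limma adjusted p = 0.0324). These 3 genes had a spread between LLC pools smaller than their difference between groups.

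The 3 effectors with the highest level per kilobase of exon were not called. Ifitm3, which blocks fusion of viruses with endosomes, measured 777 and 641 RPM in LLC and 527 and 571 RPM in LLC-Chem (log2FC -0.36, limma adjusted p = 0.118). Bst2, which encodes the virus tether tetherin, measured 267 and 156 RPM in LLC and 118 and 153 RPM in LLC-Chem (log2FC -0.60, limma adjusted p = 0.154, and -0.21 without LLC pool 1). Ifi27l2a measured 200 and 193 RPM in LLC and 165 and 152 RPM in LLC-Chem (log2FC -0.31, limma adjusted p = 0.0714). Samd9l, an antiproliferative gene, measured 117 and 85.3 RPM in LLC and 78.6 and 83.8 RPM in LLC-Chem (log2FC -0.30, limma adjusted p = 0.224, and -0.07 without LLC pool 1). Eif2ak2 encodes PKR, the kinase that halts translation on double-stranded RNA, and measured 80.1 and 65.9 RPM in LLC and 59.2 and 72.1 RPM in LLC-Chem. Its groups overlapped, and its log2 fold change of -0.15 had a 95% interval of -0.53 to 0.22. The last 3 genes of this kind, Xaf1, Ifi35 and Ifi44, had fold changes of -0.65, -0.42 and -0.43. Without LLC pool 1, those of Xaf1 and Ifi35 were -0.29 and -0.18. Ifi44 rested on LLC pool 1: it was at 37.6 RPM there and at 13.4, 13.2 and 20.6 RPM in the other pools, and its fold change without that pool was 0.29.

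Compared per kilobase of exon, Ifitm3 had the highest level among the members, with a mean of 1050 RPM per kb in LLC and 810 in LLC-Chem. It was followed by Ifi27l2a at 424 and 342 RPM per kb and by Bst2 at 234 and 150. Isg15 (120 and 39.2 RPM per kb), Ifit3 (76.4 and 17.5) and Irf7 (75.1 and 16.9) came next in LLC. In LLC-Chem, Irf1 at 36.6 RPM per kb stood above Ifit3 and Irf7, with the pool spread given above.

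The GTPases associated with interferon gamma, which attack the membranes around intracellular pathogens, were called lower in 5 of 9 cases and not called in 4. All 9 had both LLC-Chem pools below both LLC pools, an order found in 39.3% of all genes tested, and the median log2 fold change was -0.85. The 4 guanylate-binding proteins lie in a cluster on chromosome 3 between 142493978 and 142638008. Gbp5, known for its part in inflammasome activation and shown above with its ISRE core, measured 21.2 and 10.9 RPM in LLC and 4.15 and 4.50 RPM in LLC-Chem (log2FC -1.71, SE 0.32, limma adjusted p = 0.0248). Gbp3 measured 57.2 and 38.83 RPM in LLC and 22.6 and 29.8 RPM in LLC-Chem (log2FC -0.85, limma adjusted p = 0.0495), the highest adjusted p among the called members. Gbp2 measured 76.7 and 52.9 RPM in LLC and 43.2 and 51.6 RPM in LLC-Chem (log2FC -0.43, limma adjusted p = 0.164, and -0.16 without LLC pool 1). Gbp7 was not called either (log2FC -0.76, limma adjusted p = 0.0825, and -0.39 without LLC pool 1).

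Among the immunity-related GTPases, Iigp1 and Tgtp1 are effectors and Irgm1, Irgm2 and Igtp regulate them. Iigp1 measured 45.2 and 29.0 RPM in LLC and 15.0 and 15.1 RPM in LLC-Chem (log2FC -1.24, limma adjusted p = 0.0225). Irgm1 measured 122 and 79.0 RPM in LLC and 48.2 and 58.9 RPM in LLC-Chem (log2FC -0.88, limma adjusted p = 0.0457, and -0.56 without LLC pool 1). Irgm2 measured 73.6 and 59.5 RPM in LLC and 36.4 and 41.5 RPM in LLC-Chem (log2FC -0.76, limma adjusted p = 0.0253). Both regulators stood at over 50% of their LLC level, and Iigp1 at 40.6%. Igtp was not called (log2FC -0.72, limma adjusted p = 0.102, and -0.31 without LLC pool 1). It overlaps Irgm2 in the annotation, so reads of the shared exons could be lost or assigned to either gene. Tgtp1 was the scarcest member, with 4.2 and 1.0 RPM in LLC and 0.6 and 0.7 RPM in LLC-Chem, and was not called (log2FC -1.21, limma adjusted p = 0.151, and -0.38 without LLC pool 1). Since 81.2% of its 50-base words occur in Tgtp2, its level is uncertain. Tgtp2 was called lower (log2FC -1.94, limma adjusted p = 0.0142).

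Other genes of the interferon pathway were examined step by step. None of the 9 ligand genes reached a mean of 1 RPM. Ifnb1 was at 0.6 and 0.2 RPM in LLC and at 0.05 RPM in both LLC-Chem pools. Ifng was at 0.5 and 0.15 RPM in LLC and likewise at 0.05 RPM in both LLC-Chem pools, under the level of 3 reads. Ifna1, Ifna4, Ifna5, Ifnl2 and Ifnl3 were listed at 0 in every pool, which allows levels up to 0.0883 to 0.105 RPM. Of 5 receptor chains tested, 4 were called lower: Il10rb (log2 fold change -0.89), Ifnar2 (-0.74), Ifngr2 (-0.56) and Ifnar1 (-0.50), and Ifngr1 was at -0.70 (limma adjusted p = 0.0573). Ifnar1 measured 100.2 and 118 RPM in LLC and 82.95 and 71.2 RPM in LLC-Chem.

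None of the 7 genes tested that carry the signal from the receptors passed by limma, edgeR or DESeq2, a count to be read against the 13.5% of all genes called lower, and 1 was lower at an unadjusted p under 0.05. The kinases Jak1 and Tyk2 had fold changes of -0.03 and 0.00, with 269 and 338 RPM of Jak1 in LLC and 301 and 291 RPM in LLC-Chem. Of 15 further genes of nucleic acid sensing, 7 were called lower and 0 higher, including Tlr9 (-1.79), Tlr7 (-1.61), Zbp1 (-1.40), Samhd1 (-0.90) and Tmem173 (-0.78), the gene of STING. The adaptor Mavs and the kinase Tbk1, through which the RNA sensors signal, had fold changes of 0.00 and -0.01. Among other IRF factors Irf5, which acts in myeloid cells, was called lower (log2FC -1.09, limma adjusted p = 0.0204), and Irf3 was at -0.07.

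Of 43 other interferon targets tested, 24 were called lower and 0 higher, with a median log2 fold change of -1.0. Ifit1bl1, a relative of Ifit1, measured 47.4 and 10.4 RPM in LLC and 1.05 and 1.55 RPM in LLC-Chem (log2FC -3.68, limma adjusted p = 0.0234, and -2.61 without LLC pool 1). Ms4a4c, a myeloid membrane protein gene, measured 107 and 41.4 RPM in LLC and 6.4 and 5.6 RPM in LLC-Chem (log2FC -3.37, limma adjusted p = 0.013, and -2.69 without LLC pool 1). The Schlafen genes Slfn1, Slfn2, Slfn5 and Slfn8 were called lower, with log2FC of -2.12, -1.59, -1.32 and -1.81. Nlrc5, the activator of class I antigen presentation genes, fell by 1.77. The chemokine gene Cxcl9, a target of interferon gamma, fell by 1.60, while Cxcl10 measured 96.0 and 21.8 RPM in LLC and 11.6 and 15.5 RPM in LLC-Chem and was not called (log2FC -1.73, limma adjusted p = 0.106, and -0.68 without LLC pool 1). Targets with values near 0 on this scale included Ifitm2 (0.09), Trim21 (-0.02) and Trim25 (-0.18). The list of pathway genes was chosen with earlier results of these samples known, so the counts describe it and are not an independent test.

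**Figure D3:**
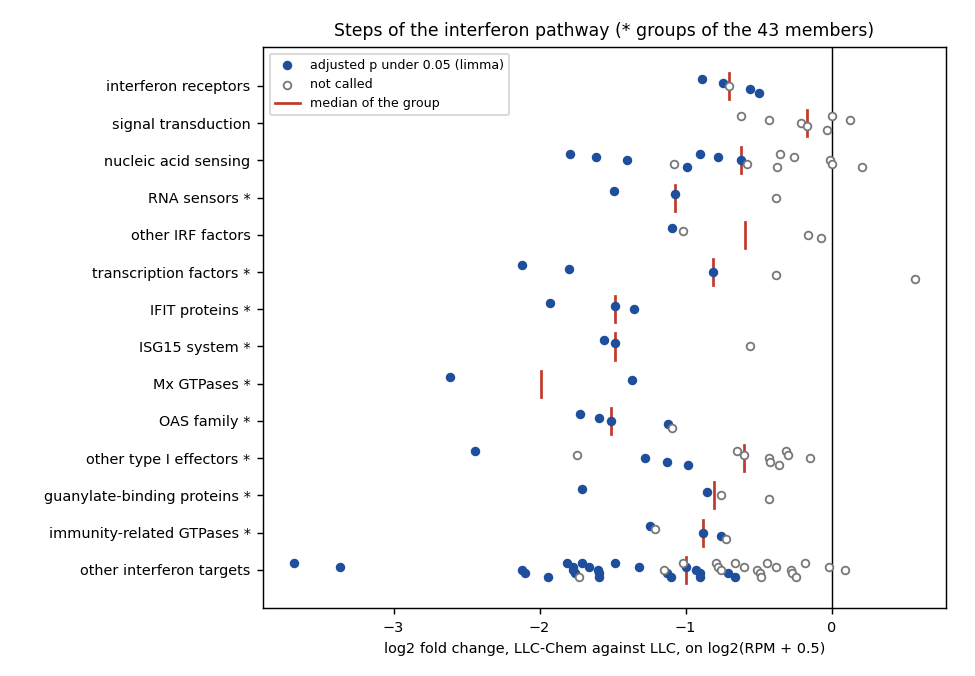
log2 fold change, LLC-Chem against LLC, on log2(RPM + 0.5), for the pathway genes tested, by step; asterisks mark groups of the 43 members, filled points are called by limma, open points are not, and red bars are group medians. No gene of signal transduction is called (median -0.17), against medians of -1.48 for the IFIT genes and -1.0 for the other targets.

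The members differed between pools of the same group in a common direction. LLC pool 1 was above LLC pool 2 for 42 of 43 members, Irf8 being the exception, whereas 57.9% of all genes tested had that order. The median log2 ratio of LLC pool 1 to pool 2 was 0.63 over the members and 0.052 over all genes. For 11 members LLC pool 1 was at least 2 times LLC pool 2. The summed level of the members was 4924 and 3229 RPM in LLC and 2063 and 2435 RPM in LLC-Chem. For 32 of the 43, the difference between the groups exceeded the gap between the LLC pools. Since each library pooled 3 tumors, the variation of single tumors behind these gaps was not measured.

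The LLC-Chem pools were ordered differently by the interferon-stimulated genes and by the leukocyte markers. LLC-Chem pool 2 was above pool 1 for 33 of 43 members, with a median log2 ratio of 0.20, whereas 48.0% of all genes tested had that order. By contrast, LLC-Chem pool 2 was above pool 1 for 1 of 23 leukocyte markers tested and for 0 of 6 endothelial markers, with median log2 ratios of -0.78 and -0.89. In the LLC pools, the median log2 ratio of pool 1 to pool 2 was 0.09 over the leukocyte markers, 0.60 over the endothelial markers (5 of 6 higher in pool 1) and 0.95 over 4 neutrophil markers (4 of 4 higher), against 0.63 over the members. Irf8 had the same order as Ptprc: near equal levels in the LLC pools and a lower level in LLC-Chem pool 2 than in pool 1. Within each group there are 2 pools, so these orders are a description and were not tested.

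Single leukocyte types were read from their own markers. All 5 NK cell markers were called lower, with a median log2 fold change of -2.92, and their summed level was 40.8 and 29.5 RPM in LLC and 2.90 and 0.850 RPM in LLC-Chem. Of 8 macrophage and monocyte markers 6 were called lower, and Ly6c2, a marker of inflammatory monocytes, was at 88.2 and 20.9 RPM in LLC and 3.30 and 1.80 RPM in LLC-Chem. Ly6c2 shared with the members the excess in LLC pool 1, while Csf1r, the receptor of the macrophage growth factor, was higher in LLC pool 2 (532 RPM) than in pool 1 (329 RPM). Of 4 neutrophil markers 3 were called lower, while of 4 dendritic cell markers 1 was called lower and 2 had both LLC-Chem pools above both LLC pools, as did 33.1% of all genes tested, with a median log2FC of 0.09. T cell genes Cd3d, Cd3e, Cd3g and Cd8a and the B cell genes had means under 1 RPM. Outside the leukocytes, 2 of 5 fibroblast markers were called lower and 1 higher by limma, with a median log2FC of 0.72. edgeR called 2 lower and 0 higher, and DESeq2 2 lower and 3 higher. In 3 of the 5 both LLC-Chem pools lay above both LLC pools, an order found in 33.1% of all genes tested. Of 3 adipocyte markers 1 was called higher, as was the 1 skeletal muscle marker tested (log2FC 1.21). Of 4 red cell genes 0 were called by limma, edgeR or DESeq2. Their summed level was 108 and 43.1 RPM in LLC and 135 and 4.0 RPM in LLC-Chem.

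**Figure D4:**
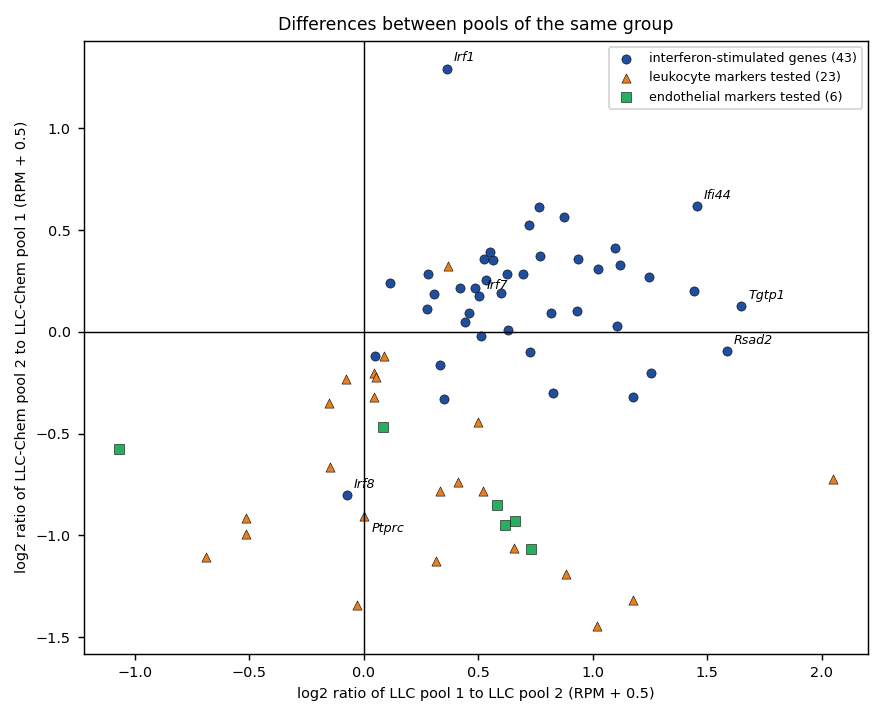
Each point is a gene, with the log2 ratio of LLC pool 1 to pool 2 on the x axis and of LLC-Chem pool 2 to pool 1 on the y axis, on RPM + 0.5; circles are the 43 members, triangles the 23 leukocyte markers tested and squares the 6 endothelial markers. Members lie to the right of 0 on the x axis except Irf8, and 33 lie above 0 on the y axis, while 22 leukocyte markers lie below it.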

How the data were processed

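Paired-end reads from 4 pools of 3 tumors were aligned by the authors to GRCm38.p4 (STAR), assigned to Ensembl genes (HTSeq) and deposited as RPM of 47729 genes. Tool versions and the strand setting are not given in the sources used here, so reads of genes that overlap on opposite strands may not be separated. All values (100%) were whole steps of 0.04997 RPM within a tolerance of 0.1 step, from which a common scaling to 20000000 reads was inferred. Library totals were fitted to values of 3 to 600 steps, and reads were recovered to within 1.

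From the deposited RPM, groups were compared with limma 3.58.1 in R 4.3.3 (trended eBayes, pseudocount 0.5 RPM, mean of at least 1 RPM). Alternatives were pseudocounts of 0.1 and 1, TMM and median-of-ratios scaling, other filters, no trend, a replicate block, edgeR 4.0.16 and DESeq2 1.42.0 on recovered reads, and omission of each pool in turn. A fit with crossed replicate numbers was chosen after seeing the data. The pools of a group hold different tumors, so p-values measure the spread between pools. The limits set by 3 reads cover counting error only.

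The members and the lists were chosen with earlier results of these data known. Members, pathway genes and markers could be named, with values in every pool for called members, those with a mean of at least 50 RPM and the transcription factors, beside a few others chosen after their values were seen. Coordinates are from GENCODE M21, which held 47310 (99.1%) of the identifiers, and promoter sequences from RefSeq (GRCm38.p6). Shared exon words were counted at 50 bases. A gene on the pathway list is left unnamed and its values are not given here.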

Additional observations from a re-analysis of the deposited data

How the results depend on the processing

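The 25 members called lower became 22 to 24 with other pseudocounts, TMM or median-of-ratios scaling and 23 with a mean of at least 5 RPM, where 42 were tested. Recovered reads gave 25 with edgeR (1600 of all genes lower) and 30 with DESeq2 (2271), and 0 members were called higher under any of these. Without a filter on low values, 0 members were called, and of 26260 genes tested 0 were lower and 1 higher. With eBayes without trend, 15 members were called, and 1271 genes were lower and 891 higher. Leaving out 1 pool, with the lone pool assumed to vary like the other group, gave 0 calls among the members and 0 among all genes in either direction. Such a fit has 1 residual degree of freedom. Of the 43 members, 2 changed direction under any of these settings, each when 1 pool was left out. The log2 fold change of Irf1 ran from -0.08 (without LLC-Chem pool 2) to 1.22, and that of Ifi44 from -1.16 to 0.29 (without LLC pool 1).

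Across genes, the deviations of same-numbered pools had a correlation of -0.1405, so the numbers do not pair them. With the replicate block, 15 members were called lower, 14 of them among the 25, and 1064 genes were lower and 549 higher overall. With the numbers crossed between groups, a choice made after seeing the data, 33 members, 2320 lower and 1579 higher genes were called. The cause of these shifts was not tested. Depth limits only the scarcest genes here, among them Tgtp1 and the ligands.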
